A study of Drosophila melanogaster with 66 samples.

Results

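The effect of EDTA on the light, non-polysomal part of a polysome gradient was measured in Drosophila embryos of 4-6 hours, with 1 EDTA treated array of the pool of fractions 1-5 set against the 2 untreated arrays of the same pool. These 3 arrays were chosen by their labels and belong to a series of 66 arrays, of which 9 hold the pool of fractions 1-5 from embryos of this age and of 0-2 and 8-10 hours. Dechorionated Canton S embryos were used throughout. EDTA treated extracts were made and sedimented in buffer with 15 mM EDTA and no added magnesium, and untreated extracts in buffer with 5 mM MgCl2. Both buffers held cycloheximide, and each array measured the RNA of whole embryos. The labels call the arrays biological replicates, so the 2 untreated arrays are separate gradients, while the EDTA treatment was done once at this age.

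Ribosomes stay assembled on an mRNA only while magnesium is present, and EDTA binds magnesium and lets the subunits fall apart. An mRNA that is held in heavy fractions by ribosomes therefore moves to the top of the gradient when EDTA is added, while an mRNA held there by other particles need not move. Cycloheximide halts elongating ribosomes on the mRNA, so untreated gradients keep the polysomes present at lysis. At 4-6 hours the germ band extends, pair-rule and segment polarity genes pattern the trunk, and most mRNAs come from the embryo's own genome.

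Values are log2 RMA signals, in which 1 unit is a doubling. RMA brings the arrays towards one distribution, so each difference is relative to the rest of the pool's mRNAs, and a gain common to all mRNAs does not appear. The deposited values still differed in spread between arrays, and this enters the differences. The EDTA array had a median of 4.74 and quartiles of 3.82 and 7.70, against medians of 4.88 and 4.85, lower quartiles of 3.96 and 3.92 and upper quartiles of 7.32 and 7.46 on the untreated arrays. The EDTA array was therefore spread more widely, and the median difference was -0.08 over all probe sets, 0.10 for probe sets above the median signal and -0.13 for those below it. Centring each array on its median moved all differences by 0.12. The 2 untreated arrays differed by a median of 0.19, and 197 of 18769 probe sets differed between them by more than 1. For mRNAs that embryos of this age should lack, 9 genes of the adult reproductive tract had unfractionated signals of 3.15 to 5.64, which is the level of background. Of the embryonic stage genes, the 6 measured of a 4-6 hour list had mean unfractionated signals of 7.69 to 10.68. Among them engrailed (en) and l(1)sc were at 10.68 and 10.48, so mRNAs known from this age were present. The 4 measured of an 8-10 hour list were at 4.79 to 9.53, so these signals alone do not date the embryos. The maternal mRNA of oskar was at 5.95 and 8.43 on the 2 unfractionated arrays and differed between them. The maternal mRNAs of bicoid and gcl were at 6.14 and 7.48 and at 8.63 and 9.18.

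Relative signals in the light pool differed with EDTA in both directions. Of 18769 probe sets, 1283 (6.84%) were higher with EDTA and 369 (1.97%) were lower, at a Benjamini-Hochberg adjusted p under 0.05 by limma. Named through their brightest probe set, 1042 of 11981 genes (8.70%) rose and 278 (2.32%) fell. Of the risen genes 945 changed by more than 1 log2 unit and 180 by more than 2, and of the fallen genes 219 and 6 did. With a second quantile normalization 806 probe sets were higher and 694 lower, so the share of calls that were higher was 53.7%, against 77.7% in the deposited scaling. Leaving out the first untreated array gave 187 higher and 14 lower, and leaving out the second gave 574 and 68. No probe set was called in opposite directions by these fits. No change in total RNA of the pool can be read from these values, and a fall relative to other mRNAs need not be a loss of mRNA. EDTA was in the lysis and gradient buffers, so the treatment acted on extracts and not on living cells. Each value is an average over all cells of the embryos.

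**Figure D1:**
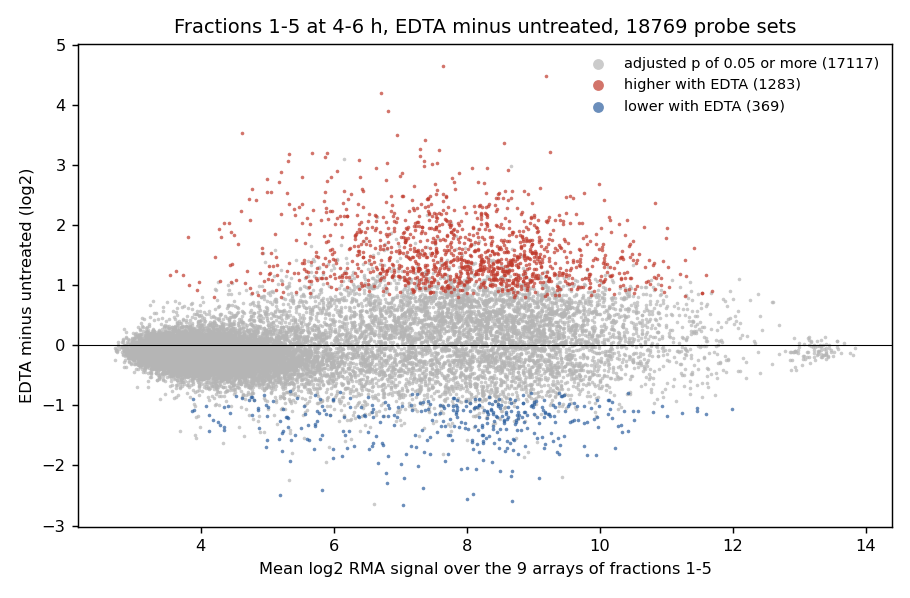
Each point is 1 of 18769 probe sets, with its mean log2 RMA signal over the 9 arrays of fractions 1-5 on the x axis and EDTA minus untreated at 4-6 hours on the y axis. The 1283 probe sets called higher and 369 called lower lie mostly between signals of 5 and 11, and none of the 116 probe sets above 12 was called.

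The calls depended on signal. Among 116 probe sets with a mean signal above 12 there was no call in either direction by limma, and their differences had an SD of 0.26, against 0.87 among the 1759 probe sets of signal 7 to 8. At the low end, 7 probe sets rose and 3 fell of 5336 with a signal of 4 or less.

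Among genes named through their brightest probe set, the largest rise was that of ApepP, which codes for aminopeptidase P. Its signal was 10.00 with EDTA, against 5.55 and 6.07 untreated, a difference of 4.19 (SE 0.26, adjusted p = 0.00263), and its mean in unfractionated RNA was 10.21. AGO3, a Piwi-family Argonaute that binds piRNAs in the germ line, was at 9.02 with EDTA, against 4.96 and 5.28 untreated, a difference of 3.90 (SE 0.29, adjusted p = 0.00354). The EDTA value lay far above both untreated values for each gene.

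Hen1, the methyltransferase that modifies the ends of small RNAs, was at 7.22 with EDTA, against 3.81 and 4.28 untreated, and rose by 3.18. Slit (sli), the ligand that the midline secretes to repel axons, was at 8.21 with EDTA, against 4.70 and 5.32 untreated, and rose by 3.20. The untreated values of AGO3, Hen1, sli and CG34025, another of the 15 largest rises, all lay at or below 5.50. That was the highest untreated mean among 112 odorant and gustatory receptor genes, of which 1 had a mean signal over 5. Whether the untreated values of AGO3, Hen1, sli and CG34025 were at background was not tested, so the sizes and order of their rises are not fixed. Picking the largest differences from 1 EDTA array can also overstate them. Both untreated values lay at or below 5.50 for 82 of the 1042 risen genes. The receptor of Slit, robo1, moved the other way, with 8.92 with EDTA against 10.20 and 9.93 untreated, a difference of -1.15 (SE 0.25, adjusted p = 0.0274). The fall of robo1 was not called when the first or the second untreated array was left out.

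Paxillin (Pax), a scaffold of integrin adhesions, was at 8.64 with EDTA and at 5.21 and 5.99 untreated. Annexin B9 (AnxB9), a calcium-dependent membrane-binding protein, was at 9.52 with EDTA and at 6.57 on both untreated arrays. Pdcd4, whose mammalian relative blocks the helicase eIF4A, was at 11.06 with EDTA, against 7.55 and 8.15 untreated, the highest EDTA value among the 15 largest rises. The others of the 15 were the peroxiredoxin Prx6c, the esterase alpha-Est5, and CG34025, CG2493, CG33096, CG42360, CG43085 and CG18178, whose differences lay between 3.01 and 3.53. In the 15 genes the untreated means ran from 4.04 to 7.85 and the EDTA values from 7.22 to 11.06, and in untreated gradients all 15 had their highest polysomal signal in fractions 10 to 12. A probe set of the gene row that was not its brightest rose by 3.06 and was not ranked. The rise of Pdcd4 was not called when the first or the second untreated array was left out.

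Among brightest probe sets the largest fall was that of CG6845, at 7.31 with EDTA against 9.98 and 9.77 untreated, a difference of -2.56 (SE 0.27, adjusted p = 0.00406). TTLL4A, of the tubulin tyrosine ligase-like family, followed at 7.59 with EDTA, against 10.04 and 10.11 untreated. The snoRNA host gene Uhg4, whose spliced transcript is not known to code for a protein, was at 9.21 with EDTA, against 11.14 and 10.94 untreated, and fell by 1.83. All of these EDTA values lay below both untreated arrays by more than the untreated arrays differed from each other. A probe set of RN-tre that was not its brightest was called lower with a difference of -2.66, beyond that of CG6845, and was not ranked.

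Several regulators were among the 15 largest falls. Smox, which transduces activin-like signals, was at 6.28 with EDTA, against 8.51 and 7.93 untreated. Dredd, the caspase of the Imd immune pathway, was at 6.71 with EDTA, against 8.57 and 8.67 untreated. Seven-up (svp), an orphan nuclear receptor, was at 4.85 with EDTA, against 6.66 and 6.79 untreated, and its unfractionated mean was 4.59. The EDTA values of svp and of ppk20, another of the 15, lay in the range of the odorant and gustatory receptor genes (up to 5.49), as did those of 42 of the 278 fallen genes. The sizes of these falls are therefore not fixed.

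Rab27, a GTPase of vesicle transport, was at 6.78 with EDTA, against 8.86 and 8.83 untreated. The calpain-like protease gene sol was at 8.49 with EDTA, against 10.37 and 10.27 untreated. The ion channel family member ppk20 and CG6041, CG10803, CG10936, CG6912, CG2909 and CG42676 completed the 15, with falls of 1.81 to 2.42. All 15 had their highest polysomal signal in fraction 6 of untreated gradients, the lightest polysomal fraction measured singly, and 7 of the 15 lie on the X chromosome. Of these 15 falls, those of TTLL4A, CG6041, CG10803, sol and CG2909 were not called when the first or the second untreated array was left out, and those of CG10936, Smox, Dredd, CG6912 and CG42676 when the first was.

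**Figure D2:**
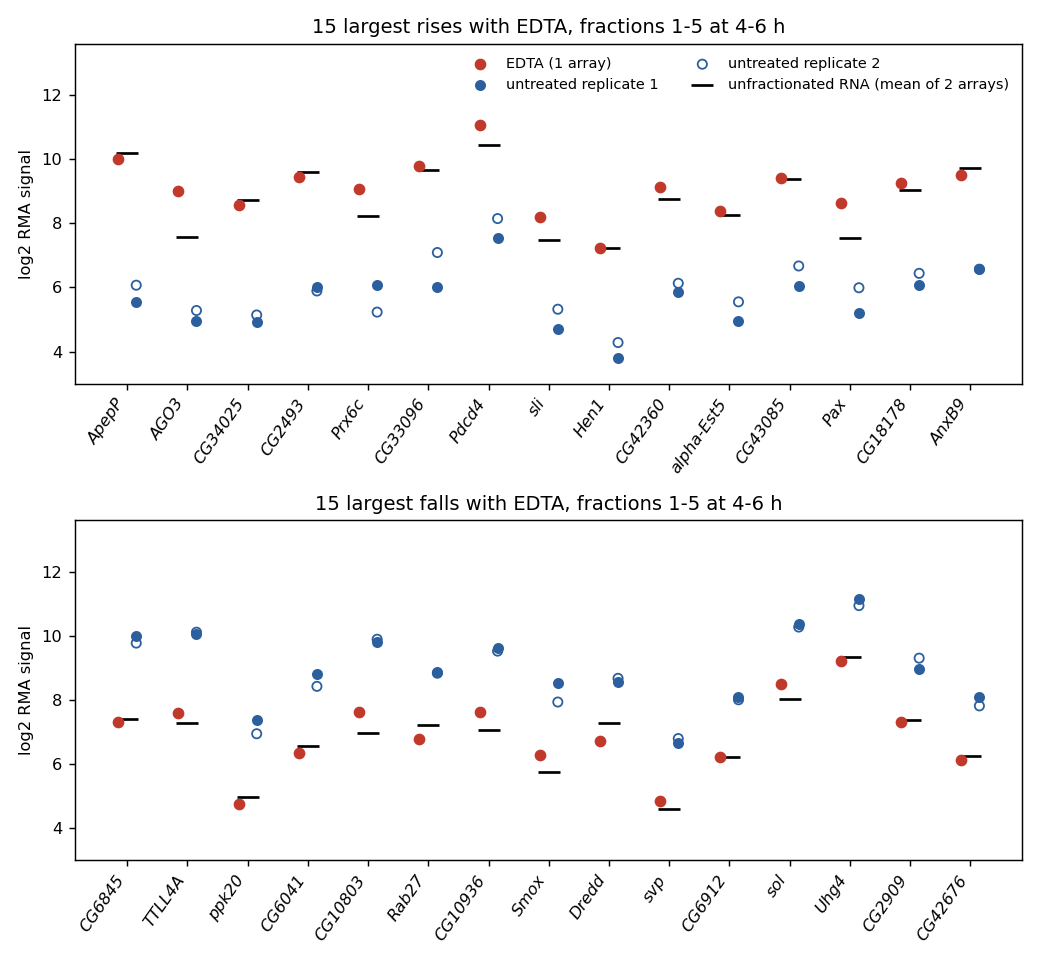
Log2 RMA signal of the 15 genes that rose most (top) and fell most (bottom) in fractions 1-5 at 4-6 hours, with the EDTA array in red left of the untreated arrays in blue, and the mean of the 2 unfractionated arrays as a black bar. The red points lie within 1.42 of the black bars in every case, while the untreated means lie 1.95 to 4.40 below the bars for the rises and 1.36 to 2.89 above them for the falls.

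With EDTA, the light pool came to resemble unfractionated RNA. Across 18769 probe sets the EDTA array correlated with the mean unfractionated signal at r = 0.992, against 0.962 and 0.963 for the untreated arrays, and above the median signal at 0.983 for the EDTA array, against 0.907 and 0.911 for the untreated arrays. Probe sets are not independent replicates, and these correlations are given as a description. The untreated arrays correlated with each other at 0.990. The median of the risen genes was 9.07 with EDTA and 7.53 untreated, beside 9.05 in unfractionated RNA. The median of the fallen genes was 7.43 with EDTA and 8.71 untreated, beside 7.47 in unfractionated RNA. Unfractionated signal lay above both untreated arrays for 1030 of the 1042 risen genes and below both for all 278 fallen genes, against 4969 and 4273 of all 11981 genes. The untreated arrays enter both the calls and these counts, so the counts are not independent of the calls.

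The change followed the size of the polysomes in which an mRNA was found without EDTA. For the 9384 probe sets of higher signal, of which 1252 (13.3%) were called higher and 348 (3.71%) lower, the highest of fractions 6 to 12 was taken from the mean of the 2 untreated gradients. Among 1588 probe sets with their highest signal in fraction 6 the median difference was -0.51, with 8 called higher and 259 called lower. In fraction 7 the median was -0.19, with 9 called higher and 26 lower of 1029. The median reached 0.02 in fraction 8 and 0.35 in fraction 9, where 16.4% of probe sets were called higher. It was greatest in fraction 10, at 0.57, where 26.9% of 1085 probe sets were called higher and 0.553% lower. In fraction 11 the median was 0.44 and in fraction 12 it was 0.28, with 25.4% and 15.7% called higher. The order therefore climbed to fraction 10 and came down again towards fraction 12.

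The 2 untreated gradients put 3647 of the 9384 probe sets in the same highest fraction and 8010 within 1 fraction of each other. Among the 3647, 201 of 874 probe sets of fraction 6 were called lower (23.0%), and the share called higher was 29.2% of 240 in fraction 10, 29.4% of 463 in fraction 11 and 18.1% of 1279 in fraction 12. The median was again highest in fraction 10, at 0.65, with 0.55 in fraction 11, so fractions 10 and 11 were close. Spearman's rho between the difference and the mean ribosome number was 0.42 over the 9384 probe sets. That mean was taken over fractions 6 to 12 only, with the ribosome numbers that the methods assign to them, weighted by signal. It therefore leaves out mRNA in the light pool. The fractions and the untreated pool come from the same gradients, so this is a description without a test.

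**Figure D3:**
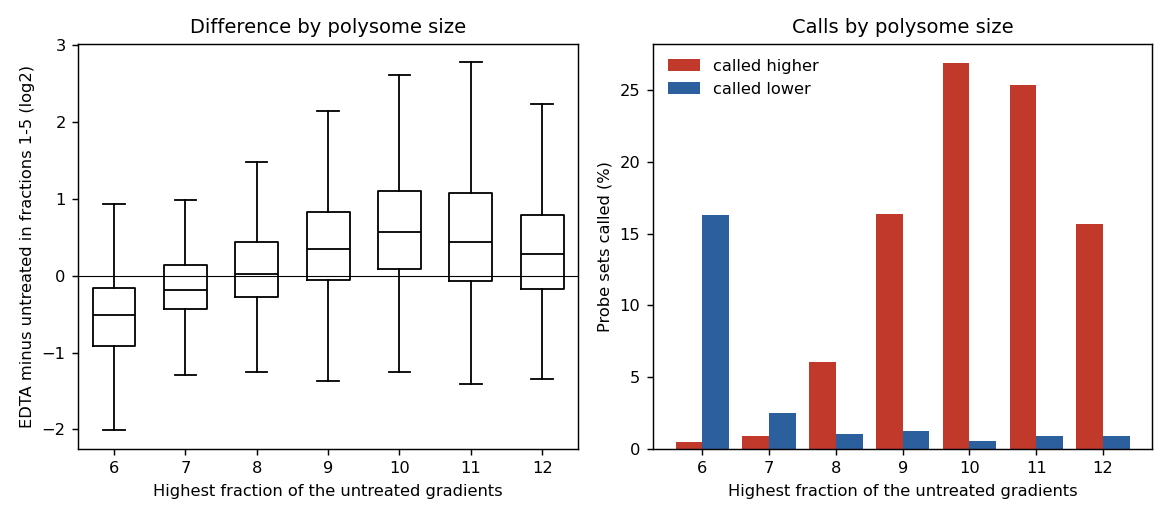
For 9384 probe sets of higher signal, the left panel shows EDTA minus untreated in fractions 1-5 (log2, boxes from the lower to the upper quartile with the median, whiskers to the last value within 1.5 box lengths) by the fraction of highest untreated signal, and the right panel the percentage called higher (red) and lower (blue). Fraction 6 has a median of -0.51 and 16.3% called lower, and fraction 10 a median of 0.57 and 26.9% called higher.

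The other pools of the EDTA gradient were measured once each and were set against the mean of the matching untreated fractions, without a test. EDTA pools were mixed before labelling, while the untreated mean gives equal weight to arrays of single fractions, whatever RNA each held. This limits all values of the heavier pools given here and below. Genes that rose in fractions 1-5 had median differences of 0.51 in fractions 6-7, -0.17 in fractions 8-9 and -0.54 in fractions 10-12, against 0.08, 0.03 and -0.05 over all genes. Genes that fell had -1.02, -0.39 and 0.32. In fractions 10-12, 790 of the 1042 risen genes (75.8%) and 92 of the 278 fallen genes (33.1%) were lower with EDTA, against 55.6% of all genes. Most of the risen mRNAs thus lost signal in the heaviest pool relative to other mRNAs, but not all of them did.

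The regulatory particle of the proteasome, which recognises and unfolds ubiquitinated proteins, had the largest share of risen genes among the lists. Of its 14 measured genes 11 rose and none fell, with a median difference of 1.97, against -0.04 over all genes and 8.70% of all genes called higher. All genes include those of low signal, few of which were called. Above the median signal 16.8% of autosomal and 14.1% of X-linked genes rose, and 3.37% and 6.42% fell. The shares of the lists below stand beside these as well. Rpn7, a subunit of the lid, was at 9.63 with EDTA, against 6.75 and 6.67 untreated, a difference of 2.92 (SE 0.25, adjusted p = 0.00383). Rpn1, a scaffold of the base, was at 9.86 with EDTA, against 7.72 and 7.65 untreated, and the ATPase Rpt4 was at 11.62 with EDTA, against 8.96 and 9.21 untreated. The smallest difference was 0.54 for Rpn8, at 9.46 with EDTA against 9.26 and 8.57 untreated, which did not pass. All 14 EDTA values lay above both untreated arrays, all 14 mRNAs had their highest polysomal signal in fractions 10 to 12, and 12 of the 14 were lower with EDTA in the pool of fractions 10-12. Without the first untreated array 6 of the 14 passed, and with a second quantile normalization 10 did.

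The core particle, which holds the protease sites, was measured for 12 genes with a median difference of 0.76. Of these 1 gene rose (8.33%), against 8.70% of all genes, and 16.8% of autosomal and 14.1% of X-linked genes above the median signal. The risen gene was Prosalpha6, at 11.32 with EDTA against 9.73 and 10.01 untreated. Prosalpha7, at 10.78 with EDTA against 10.77 and 10.80 untreated, had the smallest difference, of -0.01. With each array centred on its median 4 of the 12 genes rose, and with a second quantile normalization, or without one of the untreated arrays, Prosalpha6 was not called. None of the 12 had its highest polysomal signal in fractions 6 or 7, and 8 had it in fractions 10 to 12.

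Of 22 genes of DNA replication 12 rose (54.5%, against 8.70% of all genes), none fell, and the median difference was 1.02. The catalytic subunit of primase, Prim1, was at 9.07 with EDTA, against 6.90 and 6.98 untreated, and rose by 2.13 (SE 0.24, adjusted p = 0.00406). The replicative helicase gene Mcm5 was at 10.84 with EDTA, against 8.80 and 8.82 untreated, and Fen1, the flap endonuclease, was at 8.42 with EDTA, against 7.11 and 7.22 untreated. PolE1, the catalytic subunit of the leading strand polymerase, had the lowest difference of -0.70 and was not called. All 22 genes were lower with EDTA in fractions 10-12, with a median of -0.80. Without the first untreated array 2 of the 22 passed and Mcm5 and Fen1 did not, and without the second 6 passed and Fen1 did not.

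Among 21 genes for proteins of the spliceosomal snRNPs 8 rose (38.1%, against 8.70% of all genes) and none fell, with a median of 0.87. Sf3a2, of the U2 particle, was at 10.63 with EDTA, against 8.14 and 8.44 untreated, and rose by 2.34 (SE 0.33, adjusted p = 0.00637). SmE, a small ring protein whose mRNA had its highest polysomal signal in fraction 7, was at 11.47 with EDTA, against 11.56 and 11.94 untreated. Of the 21 none passed without the first untreated array and 4 passed without the second.

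The mRNAs for cell junctions and polarity rose in 8 of 22 cases (36.4%, against 8.70% of all genes) and fell in none, with a median of 0.62. DE-cadherin (shg), the adhesion molecule of adherens junctions, was at 9.39 with EDTA, against 7.15 and 7.51 untreated, a difference of 2.06 (SE 0.24, adjusted p = 0.00406). Its partner alpha-Cat, which links cadherin to actin, was at 11.55 with EDTA, against 9.99 and 10.16 untreated, and rose by 1.47 (SE 0.27, adjusted p = 0.0145). The protocadherin ds was lowest, at 8.07 with EDTA against 8.78 and 8.46 untreated, and was not called. In this list 21 of 22 mRNAs had their highest polysomal signal in fractions 10 to 12. In contrast to the proteasome and replication genes, 5 of the 22 were lower with EDTA in fractions 10-12, where the median difference was 0.94. alpha-Cat was at 11.99 in that pool with EDTA and at 11.70 and 12.29 untreated. These signals are relative to the other mRNAs left in the pool, so they do not show whether an mRNA stayed heavy. The paper reports, with data not shown, that EDTA completely removed the fast-sedimenting complexes that hold alpha-catenin mRNA. How much alpha-Cat mRNA remained in the heavy pool was not tested. Without the first untreated array 1 of the 22 passed and without the second 2 passed, and alpha-Cat passed in neither fit.

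**Figure D4:**
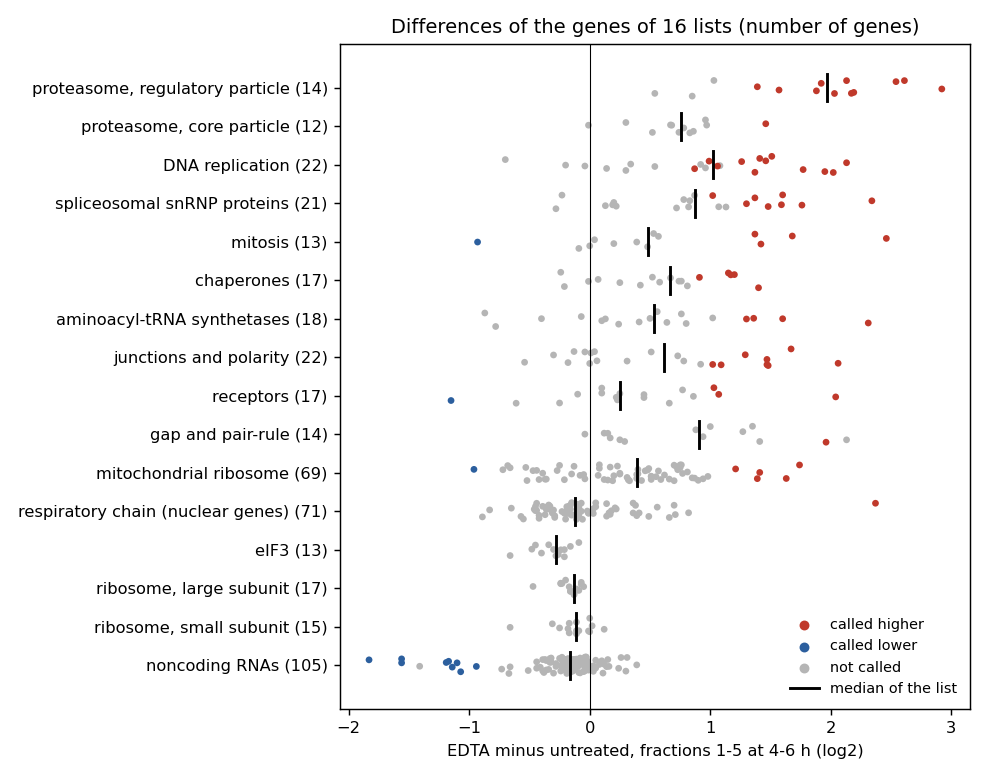
EDTA minus untreated in fractions 1-5 at 4-6 hours (log2, x axis) for each gene of 16 lists, with genes called higher in red, called lower in blue and not called in grey, and the list median as a black line. The median is 1.97 for the regulatory particle of the proteasome, and the ribosomal protein and eIF3 lists have no coloured point.

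Smaller numbers of genes rose in the other lists of the protein machinery. Of 17 chaperone genes 5 rose (29.4%, against 8.70% of all genes), with a median of 0.67. The list ran from CCT6 of the cytosolic chaperonin at 1.40 to Hsp68 at -0.24. Of 18 aminoacyl-tRNA synthetases 4 rose (22.2%), with a median of 0.53. SerRS was at 8.51 with EDTA, against 6.26 and 6.15 untreated, and LysRS, at 9.22 with EDTA against 9.91 and 10.27 untreated, had the lowest difference of -0.87 and was not called. Of 12 genes of the translocon and signal recognition particle 3 rose. Trp1, the Sec62 relative, was at 8.40 with EDTA, against 6.29 and 6.64 untreated, and Sec61alpha, the channel itself, was at 11.52 with EDTA, against 10.42 and 10.51 untreated. The rises of CCT6 and Sec61alpha were not called when the first or the second untreated array was left out, nor with a second quantile normalization, and that of Trp1 was not called without the first untreated array.

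In mitosis 4 of 13 genes rose (30.8%) and 1 fell (7.69%), against 8.70% and 2.32% of all genes. Fizzy (fzy), the activator that directs the anaphase-promoting complex to cyclins, was at 11.89 with EDTA, against 9.24 and 9.62 untreated, a difference of 2.46 (SE 0.29, adjusted p = 0.00409). Cortex (cort), a related activator of the female germ line, was at 5.86 with EDTA, against 6.95 and 6.63 untreated, and fell by 0.93 (adjusted p = 0.0403). The fall of cort was not called when arrays were centred on their medians, nor when the first or the second untreated array was left out.

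The risen genes without the first untreated array numbered 0 of 17 chaperones, 1 of 18 synthetases, 0 of 12 translocon genes and 2 of 13 mitosis genes, and without the second 0, 2, 1 and 2. A second quantile normalization lowered these medians. With it 9 of 22 replication genes, 6 of 21 snRNP genes, 4 of 22 junction genes and 1 of 17 chaperone genes were called higher, with medians of 0.64, 0.49, 0.42 and 0.35. Of the synthetases 4 were then called higher and 2 lower, and the median of the translocon and signal recognition particle became -0.19.

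None of 32 ribosomal protein genes was called in either direction by limma, and their median difference was -0.13. RpL41 was at 13.86 with EDTA, against 13.86 and 13.96 untreated, and RpL34a was at 11.75 with EDTA, against 12.09 and 12.34 untreated. Of the 32 mRNAs 26 had their highest polysomal signal in fractions 6 or 7. Their median signal was 13.23, in the range where no probe set was called, beside a highest value of 13.86 on the EDTA array and of 13.96 on both untreated arrays. How far the scanner or the scaling limits differences at this level was not tested. The sign of these differences rests on the scaling, since centring each array on its median put 15 of the 32 above 0 and the median of the small subunit list at 0.02, against -0.11 in the deposited scaling.

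All 13 genes of eIF3, which brings the small subunit to the mRNA, had differences below 0, from -0.66 for eIF3m to -0.09 for eIF3f1, and none was called, while centring each array on its median put 1 of the 13 above 0 and a second quantile normalization called 1 lower. eIF3m was at 11.42 with EDTA and at 12.09 on both untreated arrays. Among 15 other initiation, elongation and release factors 2 rose (13.3%). Of all genes 8.70% rose, and above the median signal 16.8% of autosomal and 14.1% of X-linked genes did. The median of the 15 factors, 0.13, became -0.04 with a second quantile normalization. eIF4B, a helper of the eIF4A helicase, was at 11.50 with EDTA, against 8.92 and 9.24 untreated, a difference of 2.42 (SE 0.32, adjusted p = 0.00531), while eIF5B had the lowest difference of -0.57 and was not called. eIF4B was not called without the first untreated array.

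Of 69 mitochondrial ribosomal proteins, which are coded in the nucleus, 5 rose (7.25%) and 1 fell (1.45%), with a median of 0.39. Of all genes 8.70% rose and 2.32% fell. Above the median signal 16.8% of autosomal and 14.1% of X-linked genes rose, and 3.37% and 6.42% fell. With a second quantile normalization 3 of the 69 rose and 5 fell, with a median of 0.05. The 69 ran from mRpS5, at 8.78 with EDTA against 7.06 and 7.02 untreated, to mRpS28, at 9.20 with EDTA against 10.06 and 10.24 untreated. Of 71 genes of the respiratory chain and ATP synthase 1 rose (1.41%), with a median of -0.12 that became 0.01 when arrays were centred, and with a second quantile normalization 1 rose and 4 fell. ATPsynbeta, the catalytic subunit of ATP synthase, was at 12.17 with EDTA, against 9.79 and 9.82 untreated, and ND-MNLL of complex I had the lowest difference of -0.89 and was not called. None of the 69 was called without the first untreated array, and 2 rose without the second. The calls of mRpS5, mRpS28 and ATPsynbeta were lost when the first or the second untreated array was left out. In glycolysis 1 of 9 genes rose (11.1%), the aldolase Ald1, at 10.80 with EDTA against 8.70 and 8.58 untreated.

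Of 13 mRNAs of the germ plasm and of localized maternal messages 3 rose (23.1%) and 1 fell (7.69%), with a median of 0.33. Of all genes 8.70% rose and 2.32% fell. The risen genes of this list were the Piwi-family members AGO3, piwi and aub. piwi was at 6.52 with EDTA, against 4.61 and 4.31 untreated, which is in the range of the odorant and gustatory receptor genes. aub was at 8.03 with EDTA, against 7.00 and 7.16 untreated. The RNA-binding protein gene stau, at 10.62 with EDTA against 11.43 and 11.41 untreated, fell by 0.79 (adjusted p = 0.0425). The calls of piwi, aub and stau were lost when the first or the second untreated array was left out, that of aub also with a second quantile normalization or a trended, robust prior, and that of stau also when arrays were centred, with the trended, robust prior or above the median signal. The lowest difference, of -1.03, was that of tud, at 8.53 with EDTA against 9.08 and 10.03 untreated, and it was not called.

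oskar, which assembles germ plasm, was at 6.89 with EDTA, against 6.81 and 7.11 untreated, and its EDTA value lay between the untreated arrays. In fractions 10-12 the same mRNA was at 9.86 with EDTA, against 5.32 and 5.16 untreated. bicoid, the anterior determinant, was at 5.70 in the light pool with EDTA, against 4.49 and 4.86 untreated (adjusted p = 0.0532), and it was called higher in 4 of the 7 alternative fits. In fractions 10-12 it was at 9.30 with EDTA, against 7.44 and 7.28 untreated. The intermediate pools were also higher with EDTA. In fractions 6-7 oskar was at 9.17 with EDTA, against 6.84 and 6.32 untreated, and bicoid at 8.86 with EDTA, against 6.55 and 6.06 untreated. In fractions 8-9 oskar was at 9.24 with EDTA, against 6.11 and 4.66 untreated, and bicoid at 8.72 with EDTA, against 7.20 and 6.47 untreated. Relative to the other mRNAs of each pool, both thus lay above both untreated gradients in all 3 heavier pools, with 1 EDTA array each and no test. The 32 ribosomal protein genes were also higher in fractions 10-12 with EDTA, with a median of 1.29 and 2 of the 32 lower. Scaled signals do not show whether EDTA moved an mRNA there. oskar was at 5.95 and 8.43 on the 2 unfractionated arrays, and what part the maternal mRNA of each extract had was not tested.

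Of 14 gap and pair-rule genes 1 rose (7.14%, against 8.70% of all genes), with a median of 0.91. The risen gene was opa, at 10.60 with EDTA against 8.08 and 9.20 untreated. Without the first untreated array or with a second quantile normalization opa was not called, and with centred arrays 4 of the 14 were called higher. The largest difference was that of ftz, at 9.44 with EDTA against 6.31 and 8.31 untreated, and it was not called (SE 0.64, adjusted p = 0.0872), but it was above the median signal and without the second untreated array. The call of prd was gained without the second untreated array and that of eve in the fit of 3 arrays. hunchback (hb) was at 9.97 with EDTA, against 9.65 and 10.05 untreated, and caudal (cad) at 7.93 with EDTA, against 6.95 and 6.91 untreated (adjusted p = 0.0584), with cad called higher in 3 of the 7 alternative fits. Kr, a gap gene, had the lowest difference of -0.04. Pair-rule mRNAs change quickly with age, and the untreated arrays themselves differed by 2.01 for ftz, 1.31 for prd and 1.12 for opa. The unfractionated arrays had 7.92 and 7.38 for ftz. What part the age of each extract had in these values was not tested.

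Among 17 receptor genes 3 rose (17.6%, against 8.70% of all genes) and robo1 fell (5.88%, against 2.32%). Above the median signal 16.8% of autosomal and 14.1% of X-linked genes rose, and 3.37% and 6.42% fell. The median of the 17 receptor genes, 0.25, became -0.05 with a second quantile normalization. When the first or the second untreated array was left out, 1 of the 17 rose and none fell. patched (ptc), the Hedgehog receptor, was at 9.17 with EDTA, against 6.98 and 7.27 untreated, and rose by 2.04 (SE 0.22, adjusted p = 0.00406). ptc was also the only gene called of 10 segment polarity genes (10.0%), whose lowest difference was -0.96 for inv. With each array centred 2 of the 10 rose. Of 19 neuroblast and Notch pathway genes 1 rose (5.26%), the repressor sna, and the list ran from sc at 1.45 to E(spl)m5-HLH at -0.96, with a list median that was below 0 (-0.09) with a second quantile normalization. Of 16 genes of basement membranes and integrins 1 rose (6.25%), laminin LanB2, at 10.61 with EDTA against 9.74 and 9.47 untreated. Neither sna nor LanB2 was called with a second quantile normalization or when one of the untreated arrays was left out. LanB1, at 1.04, had the largest difference of that list but was not called, and SPARC had the lowest, at -1.09.

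For 12 very long cytoskeletal genes no call was made, with a median of 0.40 and a range from -0.94 for mud to 1.14 for Myo10A. Myo10A was called higher with only the 3 arrays of this age, above the median signal and with centred arrays, and mud lower with only the 3 arrays and with a second quantile normalization. The same 12 mRNAs had a median difference of 1.41 in fractions 10-12, relative to the other mRNAs of that pool, and 1 of them was lower there with EDTA. The 3 histone-related genes measured were not called, and their differences were 0.57 for the variant His2Av, 0.91 for the centromeric cid and 0.17 for the linker BigH1.

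Of 105 noncoding RNAs on the array 9 fell and none rose, with a median of -0.16, against 2.32% of all genes called lower. Of the 105, 21 had a mean signal above 5. Besides Uhg4 the fallen RNAs included Uhg3, another snoRNA host, at 8.48 with EDTA against 9.30 and 9.53 untreated, and hpRNA:CR33940, a hairpin RNA, at 7.63 with EDTA against 9.07 and 9.32 untreated. All 9 had their highest polysomal signal in fraction 6. The fallen RNAs that are named beyond Uhg4 were chosen after their values were seen. Without the first untreated array 1 of the 105 was called lower and without the second 2 were, and neither Uhg3 nor hpRNA:CR33940 was among them. For comparison, none of 112 odorant and gustatory receptor genes was called, and their EDTA values of 2.94 to 5.49, against untreated means of 3.06 to 5.50, show the level of background, with a median difference of -0.16.

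The same treatment was done on separate extracts of 0-2 and 8-10 hours, again with 1 EDTA array each. At 0-2 hours 471 genes (3.93%) rose and 171 (1.43%) fell, and at 8-10 hours 1082 (9.03%) rose and 250 (2.09%) fell. Of the 1042 genes that rose at 4-6 hours, 238 (22.8%) also rose at 0-2 hours, 625 (60.0%) rose at 8-10 hours and 150 rose at both. Of the 278 that fell, 33 (11.9%) fell at 0-2 hours, 113 (40.6%) fell at 8-10 hours and 15 fell at both. The median difference of the risen genes was 0.54 at 0-2 hours and 1.14 at 8-10 hours, and of the fallen genes -0.40 and -0.88. These arrays were not used for the difference at 4-6 hours itself, although all 9 share the estimate of spread. Over all probe sets the difference at 4-6 hours correlated with that at 0-2 hours at r = 0.47 and with that at 8-10 hours at 0.72, as a description across probe sets.

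List medians were also set side by side by age. For the regulatory particle of the proteasome the medians ran 0.54, 1.97 and 1.66 from the youngest to the oldest embryos, with 5, 11 and 11 of 14 genes called higher. The replication genes had medians of -0.15, 1.02 and 1.26, with 3, 12 and 14 of 22 called higher. The mitochondrial ribosome had medians of 0.04, 0.39 and 0.84, with 0, 5 and 29 of 69 called higher. The junction genes had medians of 0.06, 0.62 and 0.20, with 3, 8 and 2 of 22 called higher. Whether these lists differed between ages was not tested.

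**Figure D5:**
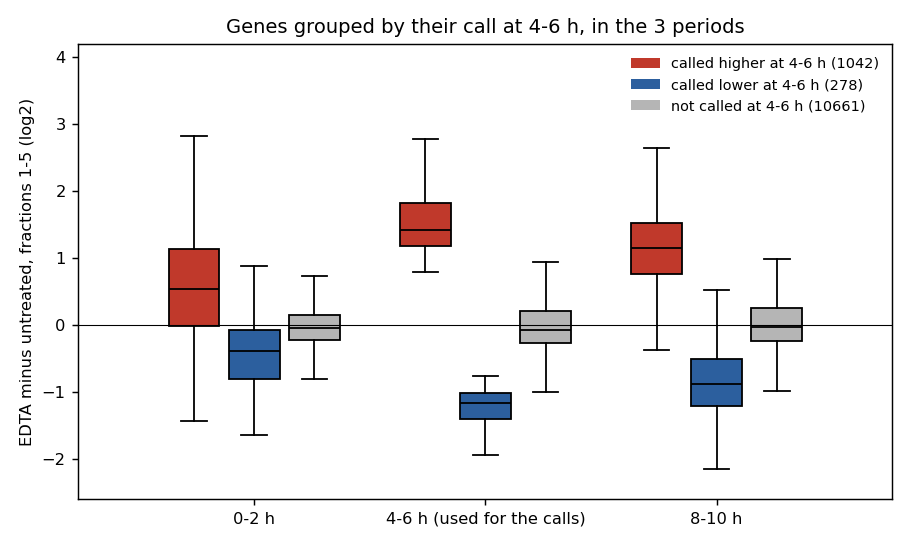
EDTA minus untreated in fractions 1-5 (log2; boxes from the lower to the upper quartile with the median, whiskers to the last value within 1.5 box lengths) by age, from the youngest embryos at the left, for genes grouped by their call at 4-6 hours. The 1042 genes that rose at 4-6 hours have medians of 0.54 at 0-2 hours and 1.14 at 8-10 hours, and the 278 that fell have -0.40 and -0.88.

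No probe set passed a direct test of the difference between ages (0% of 18769 against either age by limma). At an unadjusted p under 0.05 there were 2328 probe sets for 4-6 minus 0-2 hours and 956 for 4-6 minus 8-10 hours. With a trended and robust prior, 36 probe sets had a larger and 10 a smaller effect than at 0-2 hours, and 4 and 1 than at 8-10 hours. With only the 6 arrays of 4-6 and 0-2 hours the counts were 248 and 66.

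Of the genes called at 4-6 hours, ApepP had one of the largest differences between ages. It was at 5.89 with EDTA at 8-10 hours, against 5.75 and 5.84 untreated, and at 9.06 with EDTA at 0-2 hours, against 6.24 and 6.01 untreated. Its effect at 4-6 hours exceeded that at 8-10 hours by 4.10 (SE 0.37, adjusted p = 0.0624). AGO3 followed the same course, at 5.98 with EDTA at 8-10 hours, against 6.38 and 5.99 untreated, and at 10.19 with EDTA at 0-2 hours, against 7.05 and 6.52 untreated. Its difference of 4.10 from 8-10 hours (SE 0.42, adjusted p = 0.0818 by limma) includes its low untreated values at 4-6 hours. At 8-10 hours both genes were low with and without EDTA, at 5.75 to 6.38, beside untreated means of up to 5.50 for odorant and gustatory receptor genes at 4-6 hours. Whether less of these mRNAs was present at 8-10 hours was not tested.

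nesd, a gene needed for cytokinesis, changed sign between ages. It was at 9.46 with EDTA at 4-6 hours, against 8.08 and 8.10 untreated, and at 7.62 with EDTA at 0-2 hours, against 9.13 and 9.76 untreated, a difference of 3.19 between the effects (SE 0.43, adjusted p = 0.0642). Pdcd4 was at 9.93 with EDTA at 0-2 hours, against 9.82 and 10.28 untreated, and its effect at 4-6 hours was larger by 3.33 (adjusted p = 0.134). The adenylyl cyclase gene Ac78C and Z600, an inhibitor of mitosis at gastrulation, also had large differences between ages, of 4.02 from 0-2 hours and 3.25 from 8-10 hours. Their untreated arrays at 4-6 hours were far apart, at 4.00 and 5.95 for Ac78C and at 5.07 and 6.76 for Z600, and neither difference passed. The rise of nesd at 4-6 hours was not called when the first or the second untreated array was left out, and those of Ac78C and Z600 when the first was. With a second quantile normalization none of the 3 was called at 4-6 hours.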

How the data were processed

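Drosophila embryo extracts were sedimented through sucrose gradients, and RNA was hybridized to Affymetrix Drosophila Genome 2.0 arrays, with equal volumes of RNA from fractions 1-5 pooled. The authors deposited RMA values on the log2 scale (background-corrected, quantile normalized and summarized per probe set) for 18952 probe sets, of which 183 were controls and left out. Of the rest, 13646 had 1 gene symbol, 402 several and 4721 none, and 11981 genes were represented by the probe set of highest mean signal. Symbols were updated through RefSeq gene IDs.

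The 9 arrays of fractions 1-5 were fitted with limma 3.58.1 (R 4.3.3; 6 groups of period by treatment, 3 residual degrees of freedom, 5.1 prior). The single EDTA array was taken to vary like the untreated pairs. P-values were adjusted by Benjamini-Hochberg over 18769 probe sets with a threshold of 0.05. On simulated data for this comparison, 50 probe sets of mean signal above 6 were changed per size. Of these, 17 and 13 were recovered at log2 changes of 1 and -1, and 50 and 48 at 2 and -2, with 10 false calls. The simulated EDTA array was given the spread of the fit and no wider distribution than the untreated arrays. These numbers therefore do not give the error rate of the real calls.

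Genes were named as the 15 largest changes each way, list extremes, genes the study describes, and the 6 largest differences between periods. The members and lists were chosen with earlier results of these data known. Scaling, filters, prior, arrays fitted and left-out arrays were varied.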

Additional observations from a re-analysis of the deposited data

How the results depend on the processing

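At 4-6 hours, 1283 probe sets were higher with EDTA and 369 lower. A second quantile normalization gave 806 and 694, and a fit of only the 3 arrays of this age gave 1730 and 613. Leaving out one untreated array gave 187 to 574 higher and 14 to 68 lower, in fits where the remaining untreated array and the EDTA array were assumed to vary like the other ages. Median centring (1535 and 249), probe sets above the median signal (1371 and 384) and a trended, robust prior (1280 and 370) stayed within 1.5 times. No probe set was called in opposite directions by any of these fits. For 4-6 minus 0-2 hours, 0 probe sets passed, against 248 higher and 66 lower in the fit of 6 arrays and 36 and 10 with the trended, robust prior. For 4-6 minus 8-10 hours, 0 passed, against 2 higher and 0 lower above the median signal and 4 and 1 with the trended, robust prior. The causes were not tested. Leaving out one untreated array gave 6 to 8 risen genes for the regulatory particle of the proteasome, 2 to 6 for replication, 0 to 4 for snRNP proteins and 1 to 2 for junctions. Of 106 genes followed through these settings, 65 of them called, none changed direction. Calls were lost for 37 without the first untreated array, 25 without the second, 12 with the second quantile normalization, 5 with the trended, robust prior, 3 with median centring and 1 above the median signal. Calls were gained for 13 with only the 3 arrays of this age, 7 with the second quantile normalization, 6 above the median signal, 4 with median centring, 2 with the trended, robust prior and 2 without the second untreated array, among them those of bcd, cad, ftz, LanB1, SPARC, sc, ND-MNLL, Myo10A and mud. No paired analysis was possible because the EDTA group has 1 array, so the groups share fewer than 2 replicate numbers. Having 1 EDTA array limits every value, and signals above 12 gave no calls.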

Other observations

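Genes that fell with EDTA at 4-6 hours were more often on the X chromosome. On X 74 of 1873 genes fell (3.95%), against 203 of 10014 autosomal genes (2.03%), while 7.96% of X-linked genes and 8.88% of autosomal genes rose. Among genes above the median signal 66 of 1028 fell on X (6.42%), against 167 of 4949 on the autosomes (3.37%). On the separate arrays of the other ages 2.40% of X-linked genes fell at 0-2 hours and 3.36% at 8-10 hours, against 1.26% and 1.86% of autosomal genes. These shares were noticed in the data, and they are given as values without a test.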
